A study of Homo sapiens with 4 samples.

Results

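The WNT ligands, their receptors and their antagonists were examined as a set of 57 protein-coding genes. The deposited tables use an annotated background of 22148 genes. They name only its listed genes, so whether the members not listed belong to it could not be checked. The set was chosen by gene symbol. Members were the WNT, FZD, DKK, SFRP and RSPO families (41 genes) and 16 named genes of the same pathway, LRP5, LRP6, LGR4, LGR5, LGR6, AXIN1, AXIN2, CTNNB1, LEF1, TCF7, TCF7L1, TCF7L2, NKD1, NOTUM, ZNRF3 and RNF43. The rule itself uses no measured value.

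Both cell lines, HepG2 and Huh7, are long-established cultures of human liver cancer. Total RNA was taken from untreated HepG2 cells (group A), from HepG2 cells after sonodynamic therapy (group B), from untreated Huh7 cells (group C) and from Huh7 cells after sonodynamic therapy (group D), with 1 library in each group. In this therapy ultrasound activates a sensitizer inside the cell; the sensitizer HMME (hematoporphyrin monomethyl ether) and the drug lonidamine (LND) were delivered together in targeted nanobubbles. The treated groups therefore differ from their controls by ultrasound, nanobubbles, HMME and LND at the same time, and the parts of these agents cannot be told apart. HepG2 cells carry a deletion in CTNNB1 that removes the part of beta-catenin marked for breakdown, and both HepG2 groups share it. Each line is a single culture model, so a difference between the comparisons cannot be told apart from a difference between the lines in anything else.

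WNT proteins are lipid-modified secreted signals that bind frizzled receptors. In the canonical branch the ligand also engages the co-receptor LRP5 or LRP6, which stops a complex built on AXIN and APC from destroying beta-catenin, and beta-catenin then switches on genes together with TCF/LEF factors. In the non-canonical branches frizzled receptors act on cell polarity and calcium without beta-catenin. In the liver the canonical branch sets the zones of hepatocyte metabolism, and mutations of CTNNB1 or AXIN1 are frequent in liver cancer.

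The measurement was a call per gene. The tables give, under each Gene Ontology (GO) term, the identifiers of the mRNAs that the authors called differentially expressed between the treated and the untreated library. A gene is termed listed here when it stands under at least 1 GO term of a comparison. The tables hold no expression values, no fold changes and no direction, so a listed gene may have been higher or lower after treatment. A gene that was not listed may have been stable, too low to be called, not detected or without a GO term in the authors' annotation. With 1 library per group there was no replicate error, without expression values no difference between groups could be tested here, and the depth of each library is not held in these tables.

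In HepG2 cells 23 of the 57 WNT genes were listed (40.4%), and in Huh7 cells 17 of 57 were listed (29.8%). Of all annotated genes, 21.6% were listed in HepG2 (4783 of 22148) and 19.7% in Huh7 (4369 of 22148). Counted over protein-coding genes only, the background was 23.9% in HepG2 and 21.9% in Huh7. The WNT genes were thus listed at a share above the background in both lines, with the wider gap in HepG2. Whether these gaps exceed the variation between cultures could not be tested.

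Listed in both lines were 9 members (15.8%), beside 10.3% of all annotated genes and 11.4% of protein-coding genes. They were the ligands WNT1, WNT2, WNT10B and WNT11, the receptors FZD7, FZD9 and LGR6, the Dishevelled-binding inhibitor NKD1 and the transcription factor TCF7L2. These 9 genes made up 39.1% of the members listed in HepG2 and 52.9% of those listed in Huh7. Over all genes the shared part was 47.7% of the HepG2 list and 52.2% of the Huh7 list. A further 14 members were listed only in HepG2, 8 only in Huh7 and 26 in neither line. At least 1 listing was found for 31 members (54.4%), against 31% of all annotated genes.

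**Figure D1:**
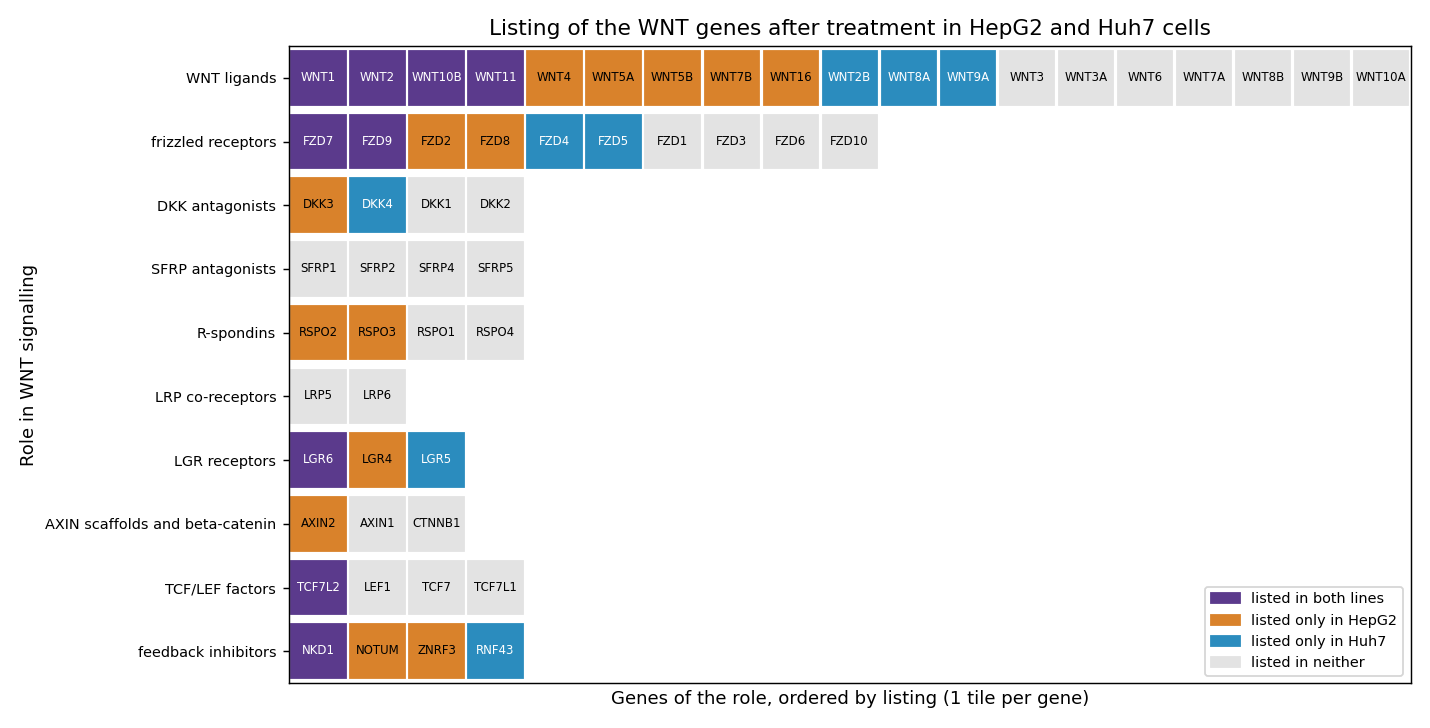
Each tile is 1 of the 57 WNT genes, placed in the row of its role and coloured by the comparisons in which it was listed (both lines, only HepG2, only Huh7, neither). The 9 genes listed in both lines fall into 5 of the rows, and the SFRP and LRP rows hold no listed gene.

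The markers of the lines were viewed in the same way. A listing is not a level, so the labelled cell type could not be checked against its markers here. Of 9 hepatocyte and liver cancer markers, 3 were listed in HepG2 and 7 in Huh7, and albumin (ALB), alpha-fetoprotein (AFP) and the liver factor HNF4A were listed in both. Markers of other cell types were listed too, namely 3 of 3 endothelial markers (CDH5, PECAM1 and VWF) in both lines, 2 of 3 blood cell markers (CD68 and PTPRC) in both lines and 2 of 4 fibroblast markers in each line. These marker lists are short beside a background of 21.6% in HepG2 and 19.7% in Huh7, and their shares were not tested. The part of genes of other cell types in the listing of the WNT genes was not tested either.

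Among the 19 WNT ligands, 9 were listed in HepG2 (47.4%) and 7 in Huh7 (36.8%), with 4 in both (21.1%). The shares of all annotated genes were 21.6%, 19.7% and 10.3%. WNT1, the founding member of the family, and WNT10B are both typical canonical ligands and were listed in both lines. WNT2, a canonical ligand of the liver endothelium and the lung, was listed in both lines as well. WNT11, a ligand mainly known for cell movements in the embryo through the non-canonical branch, was the last of the shared ligands. Listed only in HepG2 were WNT5A and WNT5B, the classical non-canonical ligands, together with WNT4, WNT7B and WNT16. Listed only in Huh7 were WNT2B, the closest relative of WNT2, and the ligands WNT8A and WNT9A. The 7 remaining ligands, WNT3, WNT3A, WNT6, WNT7A, WNT8B, WNT9B and WNT10A, were listed in neither line.

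The listing of closely related ligands was set side by side. Of the 7 pairs that carry the same number, WNT5A and WNT5B were both listed only in HepG2, and WNT3 and WNT3A were both listed in neither line. In the other pairs the relatives differed. WNT2 was listed in both lines while WNT2B was listed only in Huh7. WNT10B was listed in both lines while WNT10A was listed in neither. WNT7B, WNT8A and WNT9A were each listed in a single line, HepG2 for the first and Huh7 for the others, and WNT7A, WNT8B and WNT9B were not listed.

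Among the 10 frizzled receptors, the membrane proteins that bind WNT ligands, 4 were listed in each line (40%). The background was 21.6% in HepG2 and 19.7% in Huh7, and 10 genes are few. FZD7 and FZD9 were listed in both. FZD2 and FZD8 were listed only in HepG2, and FZD4, which also binds the ligand norrin, and FZD5 were listed only in Huh7. FZD1, FZD3, FZD6 and FZD10 were listed in neither line. The 2 co-receptors LRP5 and LRP6, which pair with frizzled in the canonical branch, were not listed in either line.

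**Figure D2:**
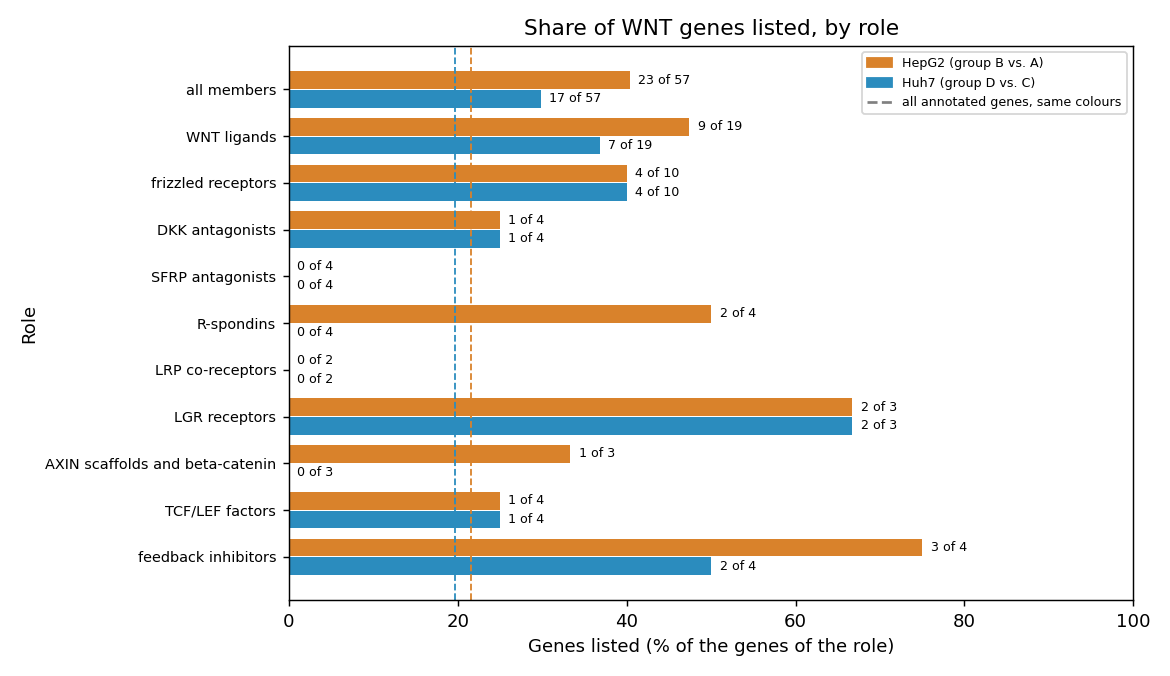
Bars give the percentage of the genes of each role that were listed in HepG2 (group B vs. A, orange) and in Huh7 (group D vs. C, blue), with the counts beside them. Dashed lines mark the share of all annotated genes, 21.6% in HepG2 and 19.7% in Huh7. There are no error bars because each group had 1 library.

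The R-spondins are secreted proteins that raise the number of frizzled receptors at the cell surface by binding LGR receptors and the ubiquitin ligases ZNRF3 and RNF43. RSPO2 and RSPO3 were listed in HepG2, and none of the 4 R-spondins was listed in Huh7. Each of the 3 LGR receptors was listed at least in a single line. LGR6 was listed in both, LGR4 only in HepG2 and LGR5, a marker of stem cells in the gut, only in Huh7. The 2 ligases divided in the same manner, ZNRF3 being listed only in HepG2 and RNF43 only in Huh7. With 4 R-spondins and a background of 21.6% in HepG2 and 19.7% in Huh7, these numbers are too small to show a difference between the lines, and none was tested.

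The DKK and SFRP families are secreted antagonists. The 4 SFRP proteins, which capture WNT ligands outside the cell, were listed in neither line. Of the 4 DKK genes, DKK3 was listed only in HepG2 and DKK4 only in Huh7. DKK1, DKK2 and DKK4 block LRP5 and LRP6, whereas DKK3 is a divergent relative. Over the DKK and SFRP antagonists together, 1 of 8 genes was listed in each line (12.5%), a number too small to set apart from the background of 21.6% and 19.7%.

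The feedback inhibitors NKD1, NOTUM, ZNRF3 and RNF43 are genes that canonical signalling is known to switch on and that then dampen it. In HepG2, 3 of these 4 were listed, and in Huh7 2 of 4 were listed. With 4 genes and a background of 21.6% in HepG2 and 19.7% in Huh7, this shows no difference between the lines, and none was tested. NKD1 was shared. NOTUM, a secreted enzyme that removes the lipid from WNT ligands, was listed only in HepG2. AXIN2, a scaffold of the destruction complex and a widely used reporter gene of canonical signalling, was also listed only in HepG2. Its relative AXIN1 and beta-catenin itself (CTNNB1) were not listed in either line. The CTNNB1 deletion of HepG2 acts on the protein and is present in both HepG2 groups, so a missing call for its mRNA gives no information on the protein.

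Of the 4 TCF/LEF factors, which carry beta-catenin to its target genes, TCF7L2 was listed in both lines. LEF1, TCF7 and TCF7L1 were listed in neither. A count of 1 of 4 genes (25%) in each line is near the background of 21.6% in HepG2 and 19.7% in Huh7.

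The promoters of the members listed in both lines were searched for short words, because TCF/LEF factors themselves read a known word in DNA. Promoters were taken from RefSeq (GRCh38.p14) as 250 bases before and 50 after each annotated start. The table held 47 promoters of 38 members. FZD7, NKD1, WNT10B and WNT11 of the shared members were not among them, and neither were AXIN2, DKK3, FZD2, NOTUM, RSPO2, WNT7B, ZNRF3, DKK4, LGR5, DKK2, FZD10, FZD3, FZD6, LRP6 and SFRP1. The 4 TCF/LEF words searched, on both strands, were CTTTG followed by AT, by AA, by TT or by TA. At least 1 of them was found in 4 of the 47 promoters (8.51%), beside 11.2% of all 22199 promoters of the table. The single word CTTTGTT was found in 4 of 47 (8.51%) and in 4.3% of all promoters. Among the 9 promoters of shared members, covering FZD9, LGR6, TCF7L2, WNT1 and WNT2, a single promoter held a TCF/LEF word. It belongs to a start of TCF7L2 downstream of its first annotated start, with CTTTGTT beginning 133 bases before the start. The other promoters with a TCF/LEF word were those of DKK1, TCF7 and WNT3, which were listed in neither line. The word TGACNNNGC, the core of the antioxidant response element read by NRF2, was searched because sonodynamic therapy is known to produce reactive oxygen. It was found in 3 of 47 member promoters (6.38%) and in 13.8% of all promoters, namely at the first start of TCF7L2, at WNT2 and at WNT2B, and in WNT2 it began 25 bases before the start. The AP-1 word TGANTCA, which can overlap the antioxidant word, was found in 1 member promoter (2.13%, all promoters 6.15%), and the hypoxia response word ACGTG in 7 (14.9%, all promoters 23%). The stretches around the words of the shared members TCF7L2 and WNT2 are given here 5′ to 3′ in the direction of the gene, with the word in capitals. They lie at chr10:113126460-113126546 on the plus strand and at chr7:117323059-117323123 on the minus strand, and end at or before the base preceding the start.
TCF7L2: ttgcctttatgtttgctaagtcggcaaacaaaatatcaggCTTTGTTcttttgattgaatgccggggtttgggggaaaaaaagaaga
WNT2: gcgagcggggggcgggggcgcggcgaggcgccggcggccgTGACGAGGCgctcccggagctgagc
A match of such a word is a description of the letters and not of binding. Among the 38 members covered, the share of promoters with any of the 4 TCF/LEF words was not above that of all promoters. For the single word CTTTGTT it was higher (8.51% beside 4.3%). AXIN2, NKD1, NOTUM and ZNRF3 were not covered, so the search does not speak for them.

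The listing was compared with the other genes of the pathway, 107 genes on 5 lists. Together 33 of them were listed in HepG2 (30.8%), 31 in Huh7 (29%) and 14 in both (13.1%). Without the target genes, 25 of 82 were listed in HepG2 (30.5%) and 21 in Huh7 (25.6%). In HepG2 these shares lie between the background of 21.6% and the 40.4% of the WNT genes. In Huh7 the share over all lists was close to the 29.8% of the WNT genes. Without the target genes it lay between that share and the background of 19.7%. These differences were not tested.

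The relay inside the cell was listed near the background of 21.6% and 19.7%, with 5 of 24 genes in HepG2 (20.8%) and 6 in Huh7 (25%). CXXC4 and DACT3, which act on Dishevelled, and DVL3, a Dishevelled protein, were listed in both lines. APC, the kinases GSK3A, GSK3B and CSNK1A1, and the Dishevelled genes DVL1 and DVL2 were listed in neither, like CTNNB1 and AXIN1. Among nuclear cofactors 5 of 19 were listed in HepG2 and 4 in Huh7, and the corepressor TLE2 and the kinase TNIK were shared.

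Ligand secretion and modulators outside the cell had 7 of 19 genes listed in each line (36.8%), beside a background of 21.6% in HepG2 and 19.7% in Huh7. The antagonists FRZB and SOSTDC1 and the WNT-cleaving enzyme TRABD2B were listed in both. FRZB is a close relative of the SFRP genes, none of which was listed. PORCN and WLS, which all WNT ligands need for lipid attachment and export, were listed in neither line. SOST and KREMEN2, which act on LRP5 and LRP6, were listed only in HepG2 together with the proteoglycan GPC3, whereas the WNT-binding antagonist WIF1 and KREMEN1 were listed only in Huh7.

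Non-canonical receptors and planar cell polarity genes differed most between the lines among these lists, with 8 of 20 genes listed in HepG2 (40%) and 4 of 20 in Huh7 (20%). With a background of 21.6% and 19.7%, the Huh7 share was near that of all genes. FUZ and PRICKLE4 were shared. VANGL1 and VANGL2, the core membrane proteins of planar polarity, were both listed only in HepG2. The related genes CELSR2 and PRICKLE1 were listed only in HepG2 and CELSR3 and PRICKLE2 only in Huh7. The receptors ROR1, ROR2 and RYK, which bind WNT5A, were listed in neither line. The difference between the lines was not tested.

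Of 25 known target genes of beta-catenin, 8 were listed in HepG2 (32%) and 10 in Huh7 (40%), beside 21.6% and 19.7% of all annotated genes. These gaps were not tested. CCND1, which drives the cell cycle, the AP-1 members FOSL1 and JUN, and the protease MMP7 were listed in both. MYC, EPCAM, EPHB2 and BMP4 were listed only in HepG2. CYP2E1 and RHBG, which mark the hepatocytes around the central vein, were listed only in Huh7 with PPARD, PROX1, SOX9 and TNFRSF19. GLUL, TBX3, LECT2 and SP5 were listed in neither line. Many of these genes answer to other pathways as well, and a listing does not say through which.

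**Figure D3:**
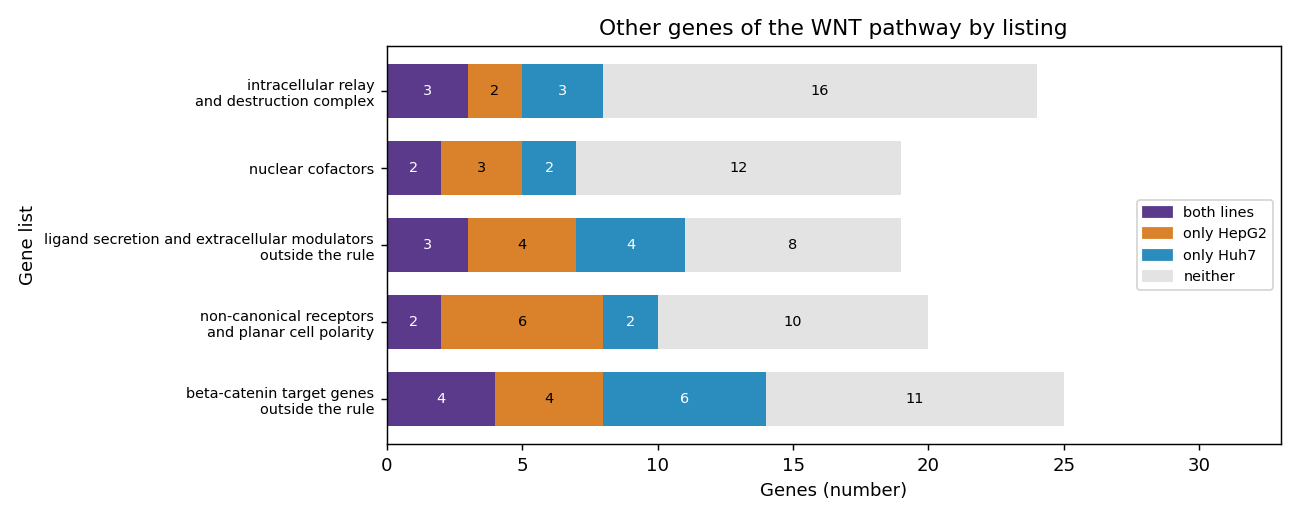
Bars count the genes of 5 lists of other WNT pathway genes by listing (both lines, only HepG2, only Huh7, neither). The polarity list holds 6 genes listed only in HepG2 and 2 listed only in Huh7, and the target list holds 4 and 6.

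The GO terms that name Wnt, frizzled or beta-catenin place the members among their annotated partners. Of the 20 such terms with at least 10 background genes, 16 held more listed genes in HepG2, 2 held more in Huh7 and 2 held equal numbers. These terms overlap strongly and are not independent. All 23 members listed in HepG2 and all 17 listed in Huh7 stood under the Wnt receptor signaling pathway, which held 127 listed genes of 480 in HepG2 (26.5%) and 106 in Huh7 (22.1%), 56 of them shared. These shares lie a little above the background of 21.6% and 19.7%, and they include the members themselves. Outside the set the term held 104 listed genes in HepG2 and 89 in Huh7. Over protein-coding genes the background was 23.9% and 21.9%, the latter close to the share of the term in Huh7.

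The canonical pathway term held 92 of 292 genes in HepG2 (31.5%) and 66 in Huh7 (22.6%). Its negative regulation showed a wider gap, with 49 of 137 in HepG2 (35.8%) and 30 in Huh7 (21.9%). Genes outside the set that were listed there in both lines included DDIT3, a transcription factor of the stress response of the endoplasmic reticulum, EGR1, an immediate early factor, the deubiquitinase CYLD, the forkhead factor FOXO3 and the ubiquitin ligase SIAH2. The positive regulation of the canonical pathway held 28 of 96 genes in HepG2 (29.2%) and 19 in Huh7 (19.8%). Of all annotated genes, 21.6% were listed in HepG2 and 19.7% in Huh7. The Huh7 shares of these terms were near that background or the 21.9% of protein-coding genes. The terms overlap, and the differences between the lines were not tested.

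The non-canonical pathway held 25 of 103 genes in HepG2 (24.3%) and 20 in Huh7 (19.4%). Its regulation is a small term, with 7 of 22 genes listed in HepG2 (31.8%) and 1 in Huh7 (4.55%). ANKRD6, DACT1, GPC3, RSPO3, WNT5A and ZNRF3 were the genes listed only in HepG2, and the gene listed in Huh7 was shared. Beside a background of 21.6% and 19.7%, these numbers are too small to show a difference between the lines, and none was tested. The planar cell polarity term held 17 of 63 genes in HepG2 (27%) and 12 in Huh7 (19%). The calcium modulating pathway went the other way, with 7 of 35 genes in HepG2 (20%) and 9 in Huh7 (25.7%), the genes listed only in Huh7 being FZD4, FZD5, the kinase CAMK2A, GNG2 and TNRC6C.

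Beta-catenin binding was the other term with more listed genes in Huh7, with 32 of 85 (37.6%) against 24 in HepG2 (28.2%). Only 2 members belong to these genes in HepG2. The adherens junction genes CDH1 and CDH5 were listed there in both lines, CDH2 and VCL only in HepG2, and CTNNA2, CTNNA3 and CTNND2 only in Huh7. Frizzled binding held 15 of 43 genes in HepG2 (34.9%), 13 of them members, and 11 in Huh7 (25.6%), 9 of them members. Wnt-activated receptor activity held 4 of 17 genes in each line (23.5%), and the destruction complex held 2 of 13 in each (15.4%), AXIN2 and DACT1 in HepG2 and APC2 and CTNNBIP1 in Huh7. The background was 21.6% in HepG2 and 19.7% in Huh7. Receptor activity was near it, and the destruction complex was below it with few genes. The shares of these terms and the differences between the lines were not tested.

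**Figure D4:**
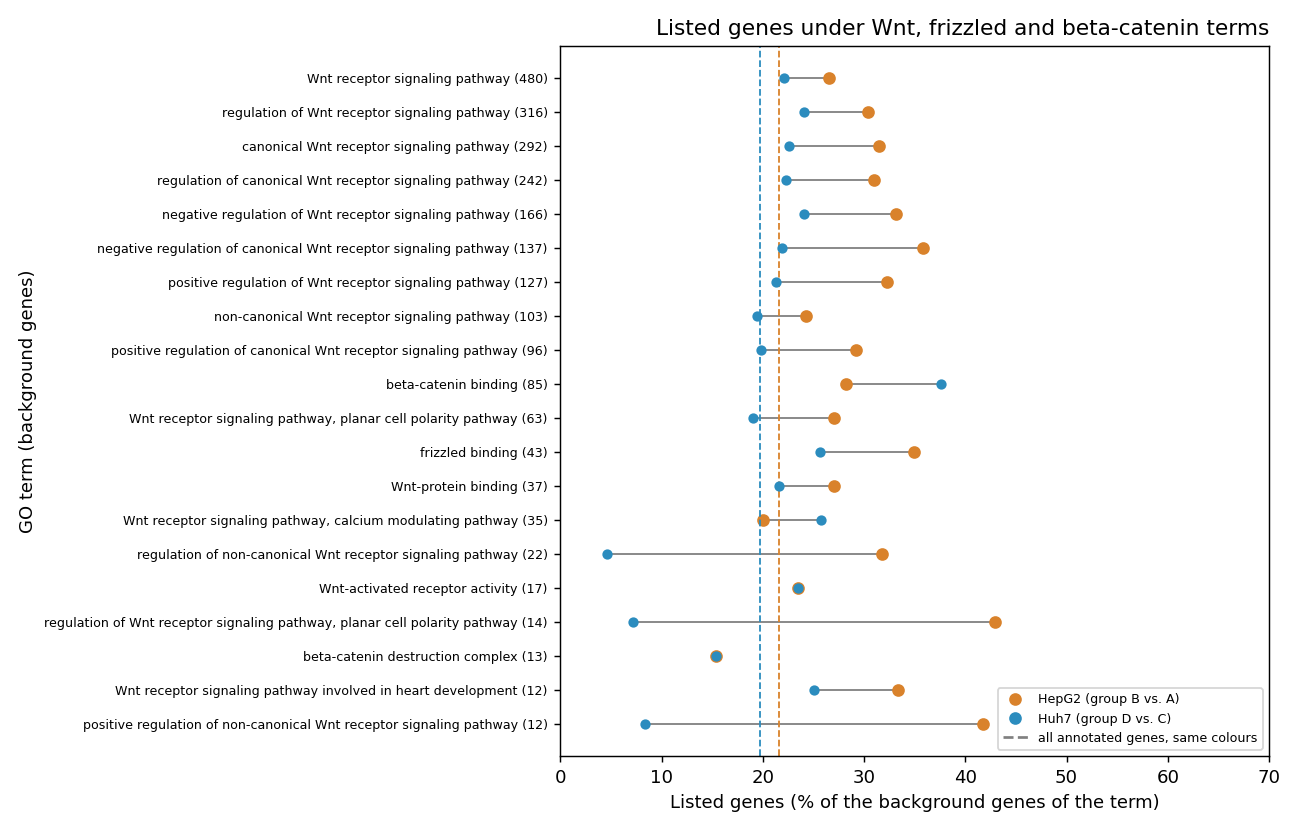
Points give the percentage of the background genes of a GO term that were listed in HepG2 (orange) and in Huh7 (blue), with the number of background genes in brackets. Dashed lines mark all annotated genes, 21.6% and 19.7%. The widest gaps are in small terms on the regulation of the non-canonical and polarity branches, and beta-catenin binding lies higher in Huh7.

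The KEGG collection, a second annotation of the same lists, holds fewer of the members. Its Wnt signaling pathway had 41 of 140 genes listed in HepG2 (29.3%), 16 of them members, and 39 in Huh7 (27.9%), 14 of them members. Of these genes 21 were listed in both lines, 8 of them members. The median over 274 pathways with at least 10 genes was 25.9% in HepG2 and 26.1% in Huh7, and 96 and 114 pathways had a higher share than the Wnt pathway. By this collection the Wnt pathway was therefore only slightly above the median pathway. LGR4, LGR5, LGR6, RSPO2, RSPO3, DKK3, NOTUM, ZNRF3 and RNF43 stood in no KEGG pathway although they were listed under GO. The members filled further pathways as shared components, with 16 and 13 of the listed genes of the Hippo signaling pathway in HepG2 and Huh7, 15 and 12 of both Basal cell carcinoma and Pathways in cancer, 14 and 12 of Melanogenesis and 14 and 11 of the pathway of stem cell pluripotency. In Basal cell carcinoma, 15 of the 22 listed genes in HepG2 and 12 of the 17 in Huh7 were members. Of all its genes, 40% were listed in HepG2 and 30.9% in Huh7. These shares were 29.9% and 28.6% for Hippo signaling and 32.1% and 30% for Pathways in cancer. They were 27.7% and 31.7% for Melanogenesis and 32.4% and 26.1% for stem cell pluripotency. The medians over pathways were 25.9% and 26.1%. All these shares include the members, and none was tested.

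Position in the genome was considered because neighbouring genes can be called together. In the order of GENCODE release 29 protein-coding genes, 4 pairs of members are direct neighbours. WNT1 and WNT10B on chromosome 12 were both listed in both lines. WNT3 and WNT9B on chromosome 17 and WNT6 and WNT10A on chromosome 2 were listed in neither line, and in the pair WNT9A and WNT3A on chromosome 1 WNT9A was listed only in Huh7. A listed neighbour of any kind stood beside 12 of the 23 listed members in HepG2 (52.2%) and 11 of the 34 others (32.4%), compared with 46.5% and 40% over all protein-coding genes. In Huh7 it stood beside 9 of 17 (52.9%) and 14 of 40 (35%), compared with 45.8% and 36.5%.

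Gene length matters for calls made from read numbers. The median transcript length was 1802 bases for members listed in both lines, 2053 for those only in HepG2, 3891 for those only in Huh7 and 2254 for those in neither. Over all protein-coding genes the share listed increased from the shortest to the longest bracket of length, from 19.9% to 27.4% in HepG2 and from 18% to 24.5% in Huh7. The members in HepG2 did not follow this order, with 7 of 10 listed in the shortest bracket, 9 of 22 in the middle and 7 of 25 in the longest. In Huh7, 3 of 10, 5 of 22 and 9 of 25 were listed in these brackets, with the lowest share in the middle bracket. The part of length in the listing was not tested.

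**Figure D5:**
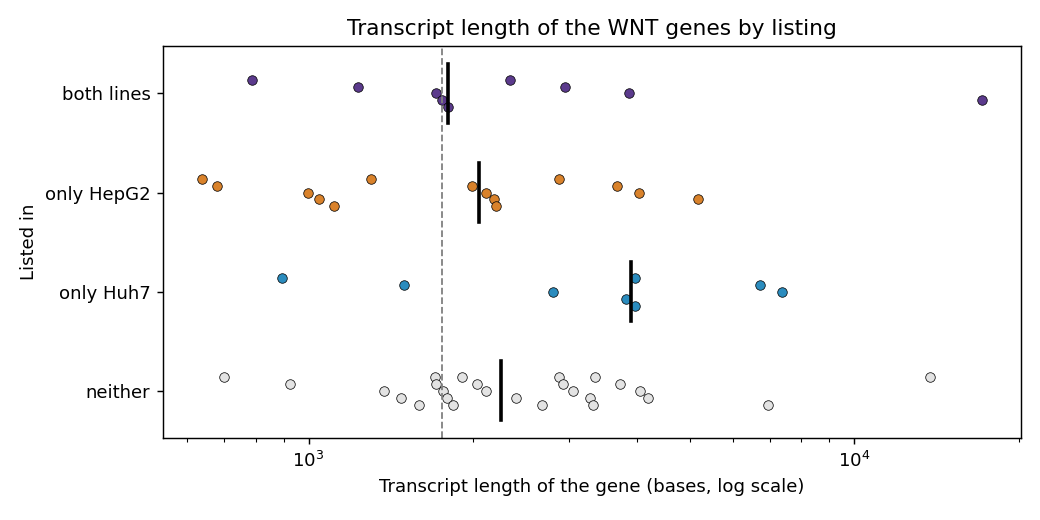
Points are the 57 WNT genes at their median annotated transcript length (bases, log scale), in rows by listing. Black bars are the medians, from 1802 bases in both lines to 3891 bases only in Huh7, and the dashed line is the median of all protein-coding genes (1759 bases).

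Sequence shared with other genes can let reads be counted for the wrong gene. Of the 75-base stretches in a member's transcripts, over 95% occurred in no other gene of GENCODE release 29 for 55 of the 57 members. The exceptions were RNF43 (44.5% unique) and AXIN2 (76.5%), whose transcripts share sequence with other gene models that are not members, so their calls are uncertain. A gene on the opposite strand overlapped 14 of the 31 listed members and 11 of the 26 others, for example PRSS23 at FZD4, FBXL14 at WNT5B, TSPAN8 at LGR5 and ST7L at WNT2B. The library kit keeps the strand, but whether the counting used it is not given in the sources used here.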

How the data were processed

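RNA of 4 libraries, 1 per group, was depleted of ribosomal RNA and sequenced. The authors' notes name HISAT2, Bowtie2 2.2.8, StringTie 1.3.1 and Cuffdiff 2.1.1. Genes were called at an adjusted p-value of 0.05 by Cuffdiff according to the methods, whereas the results section of the paper names edgeR. The genome build and annotation are not given in the sources used here. The authors deposited, for B vs. A and D vs. C, counts of listed and background genes (numbers of genes, not reads) with identifiers under GO terms (GOseq) and KEGG pathways (KOBAS). The deposited p-value and corrected p-value columns hold the authors' own enrichment results and were not used.

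Listed genes were the union of identifiers under all GO terms of a comparison. Symbols and types came from the gene name table and GENCODE 29, in which all 57 members were found. Counts were made with Python 3.11.15, set beside the share of all genes, and checked on simulated tables with known answers. No test between groups was made, since the tables hold no expression values per library. Every member is accounted for. Other pathway genes are named when listed in both lines, and the remainder by example, GO terms when they name Wnt, frizzled or beta-catenin, and KEGG pathways by the members they hold. The members and gene lists were chosen with earlier results of these data known. The search words, the neighbour, length and overlap counts and the genes named as examples were chosen after the data had been seen.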

Additional observations from a re-analysis of the deposited data

How the results depend on the processing

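No replicate could be left out, because each group has 1 library. No paired analysis was possible because the tables hold only the authors' calls and no values per library, so treated and untreated libraries could not be paired by cell line in a fit. Of 61 alternative values, 54 stayed close to the main value (counts within a preset ratio, shares within their 95% binomial interval). The share of members listed in HepG2 was 28.1% when only KEGG pathways were read, since KEGG does not hold all members. Adding the other pathway genes without targets, 139 genes in all, raised the listed genes to 48 in HepG2, 38 in Huh7 and 19 in both, through the larger set. The background was higher over protein-coding genes (23.9%, 21.9% and 11.4%). Reading GO and KEGG together, biological process terms only or another name table gave the same member counts. These settings could not change them. Every member listed under KEGG was listed under GO, all listed members stood under a biological process term, and all 57 were in the other name table. Such values are part of the 54, which therefore does not show how stable the counts are. The 5 families alone, 41 genes, had 16 listed in HepG2, 12 in Huh7 and 6 in both. The depth of each library is not held in these tables, and missing calls may reflect low levels.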

Other observations

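Developmental terms outside the Wnt vocabulary held many of the listed members, and the terms given here were chosen after their values had been seen. The number of members annotated to each term is not held in the tables, so no share of members can be given. Of all annotated genes, 21.6% were listed in HepG2 and 19.7% in Huh7. The shares of the terms include the members and were not tested. Cell fate commitment, the choice of a cell's later type, held 11 members listed in HepG2 and 10 in Huh7, with 82 (28.3%) and 71 (24.5%) of its 290 genes listed in all. Stem cell proliferation held 8 and 7 members, among 50 (32.9%) and 46 (30.3%) listed genes of 152, and FZD9, WNT1, WNT2, WNT10B and WNT11 were the members listed there in both lines. The response to retinoic acid, the vitamin A derivative that patterns tissues, held 7 members in each line among 31 listed genes of 115 in each (27%). FZD7, WNT2, WNT10B and WNT11 were shared there, WNT5A, WNT5B and WNT7B were listed only in HepG2, and FZD4, WNT8A and WNT9A only in Huh7.

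The number of GO terms under which a member stood reflects how well the gene is annotated and not the size of its response. It ranged from 72 terms for NOTUM to 1069 for WNT5A.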
